A study of Rattus norvegicus with 6 samples.

Results

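A set of 10 genes that glucocorticoid hormones are known to induce were followed through rat glomeruli, the filtering units of the kidney: ZBTB16, FKBP5, PER1, TSC22D3, KLF9, DUSP1, CDKN1A, CEBPD, DDIT4 and ANGPTL4. They were chosen by symbol, and ZBTB16 and FKBP5 were on the list because their levels in these same libraries were higher with AC1903 than with vehicle. Each of the 10 symbols belonged to 1 of the 26319 gene IDs of the count table, 12321 of which carry a symbol, and all 10 genes passed the filter on low counts. Since the choice rested on measured values, the AC1903 and vehicle difference is given for these genes as a description with no test. ZBTB16 and FKBP5 get no test in any comparison, because the comparisons with wild type use libraries that chose them.

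Messenger RNA of isolated glomeruli of Sprague Dawley rats was sequenced in 3 groups of 2 libraries. The AT1R Tg AC1903 rats were transgenic for the angiotensin II receptor AT1R, received AC1903, a small-molecule inhibitor of the cation channel TRPC5, and were 23.0 and 20.4 weeks old (replicates 1 and 2). The AT1R Tg vehicle rats carried the same transgene, received vehicle and were 20.4 and 17.4 weeks old. The WT rats were wild type, are also labelled as having received vehicle, and were 20.4 and 21.9 weeks old. Both AT1R Tg groups share the transgene, and WT differs from the AC1903 group in both transgene and compound. The sources used here do not give the promoter of the transgene, the dose, the length of treatment, the time since the last dose or the time of day at collection. Rats of 1 group differed in age, so each library stands for another animal.

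Glucocorticoids bind the glucocorticoid receptor, which waits in the cytosol in a complex with HSP90 and co-chaperones, moves to the nucleus and binds palindromic response elements, often far from the gene's start. FKBP5 is a co-chaperone that lowers the receptor's affinity for hormone, so that its induction closes a feedback loop. In the kidney the enzyme HSD11B2 inactivates corticosterone, the main glucocorticoid of rats, in mineralocorticoid target cells. Podocytes express the receptor, and glucocorticoids are a treatment of podocyte diseases.

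Promoter sequence is shown for 3 of the genes, to place the motifs searched for against the values that follow. RefSeq promoters of the build GRCr8 (250 bases before to 50 bases after the start, 300 in all) matched 8 of the 10 symbols with 10 promoters, 3 of them for TSC22D3. ZBTB16 and CEBPD had no entry. The 250 bases before the start are printed 5′ to 3′ on the strand of the gene, with capitals for a match: FKBP5 at chr20:6543556-6543805 (minus strand, no match), TSC22D3 at chrX:109065431-109065680 (minus strand) and DUSP1 at chr10:17184603-17184852 (plus strand).

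FKBP5: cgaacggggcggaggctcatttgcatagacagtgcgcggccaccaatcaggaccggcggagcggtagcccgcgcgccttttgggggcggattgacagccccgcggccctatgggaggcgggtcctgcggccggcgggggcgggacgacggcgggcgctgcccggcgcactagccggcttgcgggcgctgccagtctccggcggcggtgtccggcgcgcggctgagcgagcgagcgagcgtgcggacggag
TSC22D3: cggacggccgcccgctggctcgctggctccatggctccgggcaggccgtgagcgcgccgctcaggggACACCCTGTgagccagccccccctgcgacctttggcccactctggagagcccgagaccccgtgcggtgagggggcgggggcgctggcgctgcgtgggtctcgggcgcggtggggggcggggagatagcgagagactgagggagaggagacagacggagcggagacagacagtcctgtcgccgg
DUSP1: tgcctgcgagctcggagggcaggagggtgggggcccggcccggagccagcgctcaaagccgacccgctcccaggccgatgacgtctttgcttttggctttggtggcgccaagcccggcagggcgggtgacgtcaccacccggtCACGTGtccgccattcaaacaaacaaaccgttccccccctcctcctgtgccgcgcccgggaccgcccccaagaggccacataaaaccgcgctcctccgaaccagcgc

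The core ACANNNTGT of the glucocorticoid response element, which reads the same on both strands, occurred in 1 of the 8 genes, in 1 of the TSC22D3 promoters with its first base at position -183 from the start. It occurred in 6.86% of all 33469 promoters of the same length. The half-site AGAACA, or TGTTCT on the other strand, occurred in 0 of the 8 genes and in 20.68% of all promoters. The E-box CACGTG, the element bound by the circadian CLOCK and BMAL1 proteins, occurred in DUSP1 at position -107 and in none of the other 7 genes, against 6.42% of all promoters. ACANNNTGT and TGTTCT can overlap in one site, and a match is a run of letters and no measure of binding. Of the 8 genes with a promoter, FKBP5 had the largest fold change of AC1903 over vehicle. It held none of the motifs in its window, and 76.0% of its printed bases were G or C. ZBTB16, with a larger fold change, had no promoter to search.

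Depth differed with genotype. The libraries held 12325515 and 12637582 expected counts with AC1903, 13464600 and 14230770 with vehicle, and 25045081 and 36026772 in WT. Transcripts of the mitochondrial genome took 34.0% and 32.0% of the counts with AC1903, 25.3% and 40.5% with vehicle and 22.3% and 28.3% in WT. All 12 podocyte markers were detected in every library, as the tissue label requires, with summed levels between 9627 and 18020 CPM (counts scaled by TMM-normalised library size). CPM are not corrected for gene length, so levels are compared between libraries and not between genes. Fewer cells of a type and less RNA per cell cannot be told apart in such bulk samples.

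ZBTB16 (ENSRNOG00000029980), the zinc-finger repressor PLZF, stood at 119 and 45.3 CPM with AC1903, at 6.44 and 1.14 CPM with vehicle, and at 2.73 and 0.976 CPM in WT. Both AC1903 libraries lay far above the other 4, and vehicle and WT overlapped. These levels came from 1425 and 567 counts with AC1903, 91 and 14 counts with vehicle and 76 and 36 counts in WT. Means were 81.9 ± 51.8 CPM with AC1903, 3.79 ± 3.75 CPM with vehicle and 1.85 ± 1.24 CPM in WT (SD, n = 2 each). The 2 rats of a group differed 2.62-fold with AC1903, 5.65-fold with vehicle and 2.79-fold in WT, with replicate 1 the higher in each group. The log2 fold change over vehicle was 4.40 (SE 0.76), or 21.2-fold, and the authors' deposited table gives 4.43. Against WT the log2 value was 5.50 (SE 0.79) for AC1903 and 1.09 (SE 0.79) for vehicle. By fold change over vehicle ZBTB16 took place 36 of 13426 genes, and place 2 of the 10120 genes with a mean of at least 5 CPM. This contrast put ZBTB16 on the list, so a high place was set by the choice and is a description only. Its mean passed 5 CPM through the AC1903 libraries alone.

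FKBP5 (ENSRNOG00000022523), the receptor's co-chaperone, had 215 and 161 CPM with AC1903, against 101 and 55.6 CPM with vehicle and 92.6 and 49.0 CPM in WT. The AC1903 libraries were again the highest pair, and each group's replicate 1 was its higher rat. Group means were 188 ± 37.9 CPM with AC1903, 78.3 ± 32.2 CPM with vehicle and 70.8 ± 30.8 CPM in WT (SD, n = 2 each). The log2 fold change over vehicle was 1.26 (SE 0.36), a 2.39-fold difference, and the authors' deposited table gives 1.26. Relative to WT it was 1.41 (SE 0.36) for AC1903 and 0.15 (SE 0.35) for vehicle. By fold change over vehicle FKBP5 took place 411 of 13426 genes, and place 75 of the 10120 genes with a mean of at least 5 CPM. Many genes thus differed by more, though this contrast had put FKBP5 on the list.

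ZBTB16 and FKBP5 ranked the 6 libraries in the same order: AC1903 replicate 1, AC1903 replicate 2, vehicle replicate 1, WT replicate 1, vehicle replicate 2 and WT replicate 2. Their Pearson correlation over the log2 CPM of the 6 libraries was 0.98, a description over libraries that fall into groups. Both genes were chosen for higher levels with AC1903, so a high correlation between them was largely set by that choice. Genes that resemble either one share that difference, and their correlations are descriptions too. KLF9 came closest among the other members, with a correlation of 0.87 with ZBTB16 and 0.78 with FKBP5. Correlation with PER1 was 0.25 for ZBTB16 and 0.18 for FKBP5. Of 9739 other genes with a symbol and a mean of at least 5 CPM, 112 had a correlation of 0.9 or more with ZBTB16 and 153 with FKBP5. The closest to ZBTB16 were ARMCX5 (0.991), MRS2 (0.982), WRN (0.982), ETV3 (0.981) and RAB23 (0.981). Among the closest to FKBP5 were INSR (0.995), NF1 (0.989), USP22 (0.989) and ARNT (0.985). INSR, the insulin receptor, had 51.9 and 46.9 CPM with AC1903, 29.5 and 19.8 CPM with vehicle and 28.5 and 17.8 CPM in WT. ARMCX5 ran over a far narrower range than ZBTB16, with 8.32 and 7.75 CPM with AC1903, 7.15 and 6.43 CPM with vehicle and 6.71 and 6.59 CPM in WT.

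**Figure D1:**
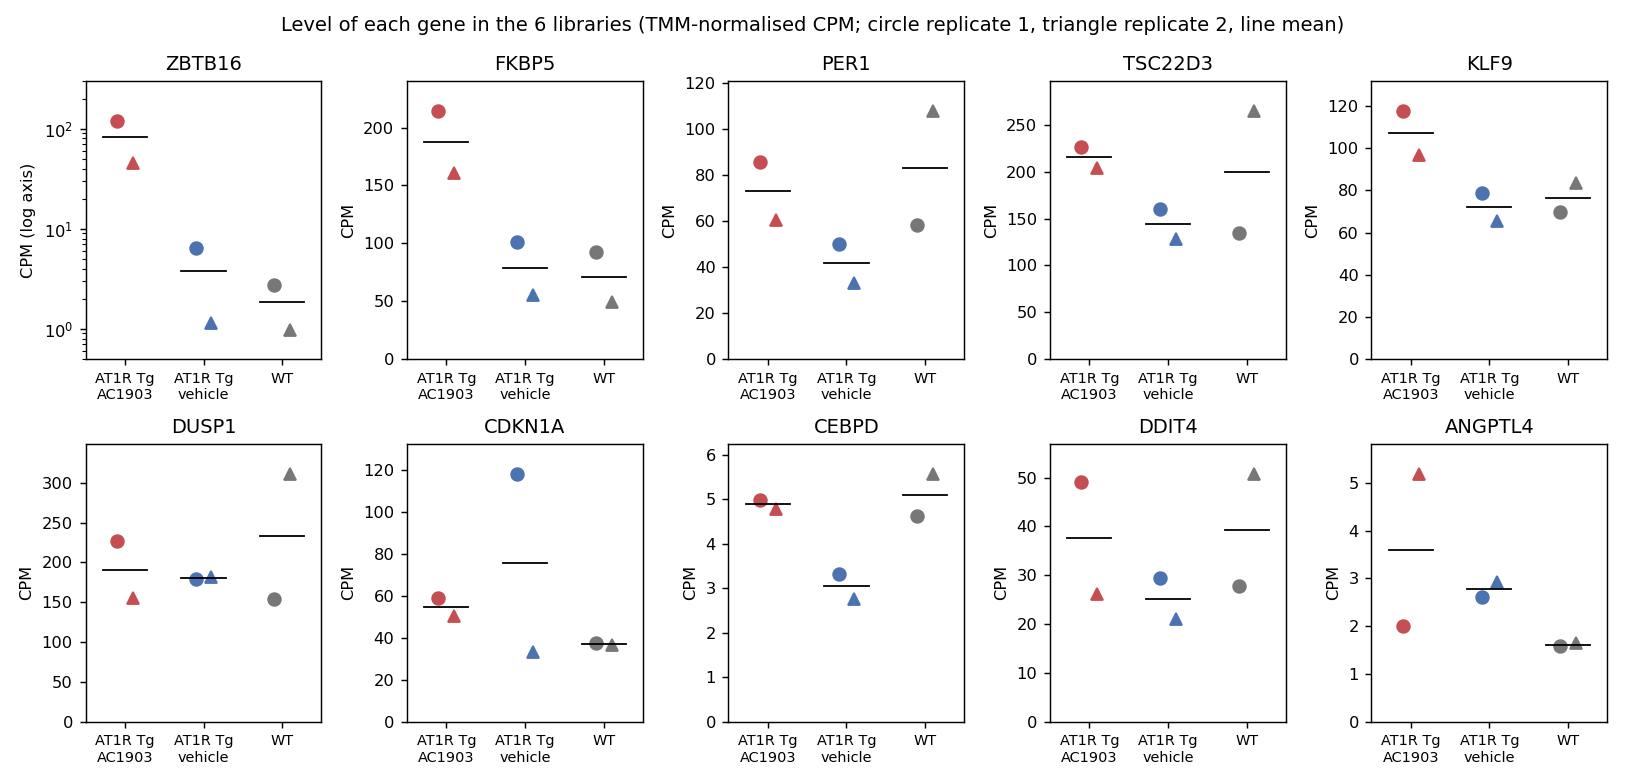
Level of each of the 10 genes in CPM after TMM normalisation (y axis, logarithmic for ZBTB16 and from 0 for the others) in AT1R Tg AC1903, AT1R Tg vehicle and WT, with a circle for replicate 1, a triangle for replicate 2 and a line at the mean. The AC1903 points of ZBTB16 (119 and 45.3 CPM) and FKBP5 (215 and 161 CPM) lie above those of both other groups, while WT replicate 2 is the highest point for PER1, TSC22D3, DUSP1, CEBPD and DDIT4.

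The anti-inflammatory members came next in the receptor's programme. TSC22D3 (ENSRNOG00000013786), the leucine zipper protein GILZ that restrains NF-kappaB and AP-1, had 227 and 204 CPM with AC1903, 159.9 and 128 CPM with vehicle and 135 and 265 CPM in WT. AC1903 and vehicle did not overlap, and the 2 WT rats enclosed all other libraries but 1. The log2 fold change of AC1903 over vehicle was 0.58 (SE 0.29). DUSP1 (ENSRNOG00000003977), a phosphatase that switches off MAP kinases, had 227 and 155 CPM with AC1903, 179 and 182 CPM with vehicle and 155 and 312 CPM in WT. All groups overlapped, and the log2 difference between AC1903 and vehicle was 0.08 (SE 0.32).

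Regulators of transcription made up the next set. KLF9 (ENSRNOG00000014215), a Krüppel-like factor, had 118 and 97.0 CPM with AC1903, 78.9 and 65.3 CPM with vehicle and 69.8 and 83.5 CPM in WT. Like FKBP5 it was highest in the AC1903 pair, with log2 0.57 (SE 0.18) over vehicle and 0.49 (SE 0.18) over WT. PER1 (ENSRNOG00000007387), a repressor of the circadian clock that glucocorticoids also induce, had 85.9 and 60.5 CPM with AC1903, 50.2 and 33.0 CPM with vehicle and 58.2 and 108 CPM in WT. The vehicle pair was lowest, so that AC1903 stood at log2 0.81 (SE 0.33) over vehicle and at -0.18 (SE 0.32) against WT. CEBPD (ENSRNOG00000050869), a C/EBP family factor, had the same shape at a low count, with 4.99 and 4.80 CPM with AC1903, 3.33 and 2.77 CPM with vehicle and 4.63 and 5.58 CPM in WT. Its CPM rested on 60 counts in each AC1903 library, 47 and 34 counts with vehicle and 129 and 206 counts in WT, and the log2 difference of AC1903 over vehicle was 0.68 (SE 0.37).

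Growth and metabolic members followed. CDKN1A (ENSRNOG00000000521), the cell cycle inhibitor p21, had 58.8 and 50.4 CPM with AC1903, 118 and 33.2 CPM with vehicle and 37.3 and 36.4 CPM in WT. One vehicle rat, replicate 1, was far above the rest and the other vehicle rat was the lowest of all. The log2 difference of AC1903 and vehicle was -0.47 (SE 0.46), and 0.71 without vehicle replicate 1. DDIT4 (ENSRNOG00000000577), the mTORC1 inhibitor REDD1, had 49.0 and 26.2 CPM with AC1903, 29.4 and 21.0 CPM with vehicle and 27.8 and 50.8 CPM in WT, and all groups overlapped. Its log2 difference of AC1903 over vehicle was 0.58 (SE 0.37), and with the vehicle mean lowest it resembled PER1, with a correlation of 0.93 over the 6 libraries. ANGPTL4 (ENSRNOG00000007545), a secreted inhibitor of lipoprotein lipase, had 2.00 and 5.20 CPM with AC1903, 2.62 and 2.93 CPM with vehicle and 1.58 and 1.65 CPM in WT. Only AC1903 replicate 2 stood apart, and the counts were low, at 24 and 65 with AC1903, 37 and 36 with vehicle and 44 and 61 in WT. The log2 difference of AC1903 over vehicle was 0.38 (SE 0.56).

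Over the 10 genes, AC1903 was above vehicle by fitted fold change in 9 and below in 1, CDKN1A, with a median log2 of 0.58. Among all 13426 genes tested 47.9% were above and the median was -0.02. In 6 of the 10, ZBTB16, FKBP5, PER1, TSC22D3, KLF9 and CEBPD, both AC1903 libraries exceeded both vehicle libraries, and in 0 both were lower. Among all genes tested the groups stood apart upwards in 19.9% and downwards in 18.4%. The choice of ZBTB16 and FKBP5 used this contrast, so nothing is read from these counts. In edgeR's quasi-likelihood test with Benjamini-Hochberg adjustment over all genes at a threshold of 0.05, 0% of genes were called between AC1903 and vehicle. At an unadjusted p under 0.05 stood 1090 genes, and DESeq2 called 67 genes, 0.499% of those tested, while limma-voom called 0.

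**Figure D2:**
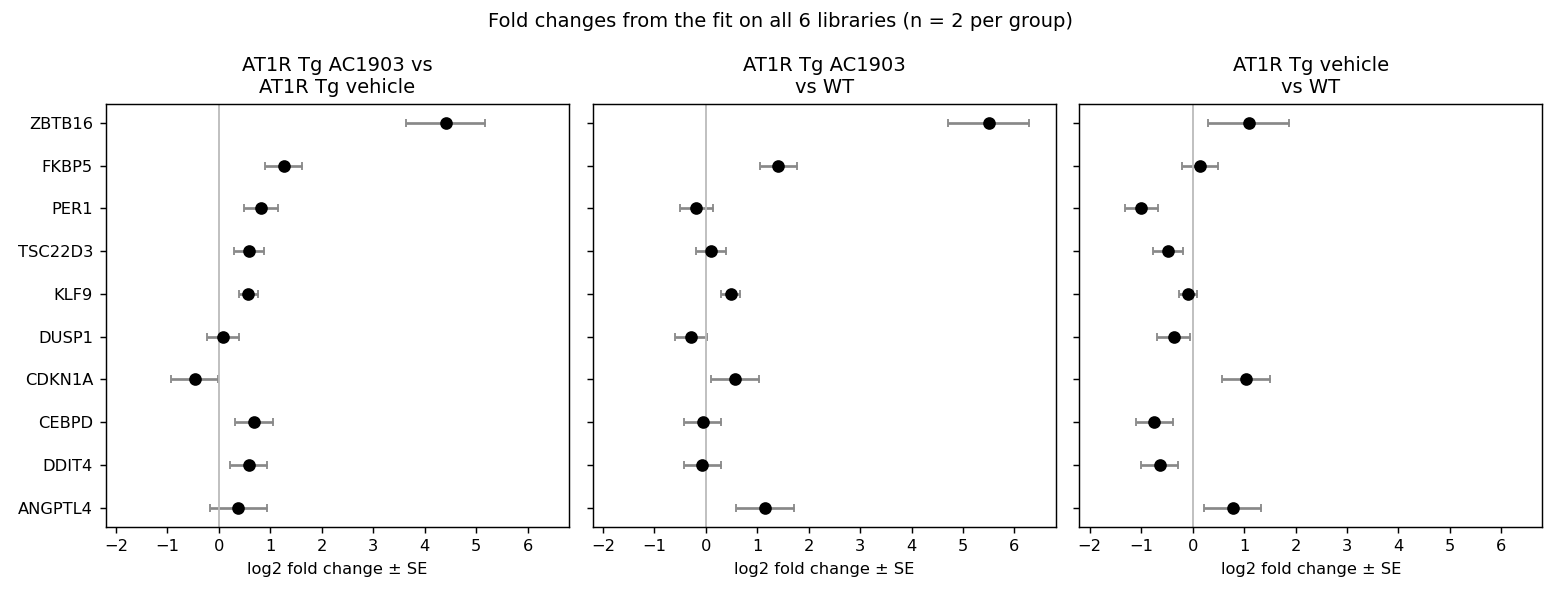
Log2 fold change with its SE (x axis) of the 10 genes in the fit on all 6 libraries, n = 2 per group, in panels for AT1R Tg AC1903 over AT1R Tg vehicle, AT1R Tg AC1903 over WT and AT1R Tg vehicle over WT. ZBTB16, at 4.40 and 5.50 in the panels with AC1903, is far to the right of every other gene, and PER1, TSC22D3, KLF9, DUSP1, CEBPD and DDIT4 lie left of 0 in the panel of vehicle over WT.

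The 8 genes other than ZBTB16 and FKBP5 were tested between AT1R Tg vehicle and WT, which asks what differs with the transgene. None of the 8 was called in edgeR, against 0.0745% of all genes and 4.13% in DESeq2, and 1 of the 8, PER1, had an unadjusted p under 0.05, against 11.9% of all genes. DESeq2 and limma-voom called 0 of the 8. By fitted fold change 2 of the 8 were above WT, with a median log2 of -0.42, against 46.6% of all genes and a median of -0.03. PER1 averaged 41.6 ± 12.1 CPM in vehicle and 83.1 ± 35.2 CPM in WT (SD, n = 2 each), a log2 change of -0.998 (SE 0.33, edgeR adjusted p = 0.248). Both vehicle libraries were below both WT libraries for PER1 and CEBPD, a pattern found in 23.4% of all genes, and above them for ANGPTL4, as in 20.6% of all genes. CEBPD differed by -0.74 (SE 0.36, edgeR adjusted p = 0.479) and ANGPTL4 by 0.78 (SE 0.56, edgeR adjusted p = 0.656). The authors' deposited table for vehicle and WT gives adjusted p-values from 0.0764 for PER1 to 0.968 for KLF9 over the 8 genes. The vehicle mean of CDKN1A was 75.7 ± 60.0 CPM against 36.9 ± 0.648 CPM in WT (SD, n = 2 each), a log2 difference of 1.04 (SE 0.46, edgeR adjusted p = 0.428). Vehicle replicate 1 decided it: the value was -0.15 without that library and 1.68 without vehicle replicate 2. Either fit left 1 rat in the vehicle group, assumed to vary like the other groups. With no filter on low counts, where edgeR called 4.46% of 17364 genes, PER1 (adjusted p = 0.00323) and CDKN1A (adjusted p = 0.00849) were called.

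Between AT1R Tg AC1903 and WT, where transgene and compound differ together, edgeR again called 0 of the 8, against 0.0372% of all genes and 1.35% in DESeq2. One of the 8, KLF9, had an unadjusted p under 0.05, as did 11.1% of all genes, and neither DESeq2 nor limma-voom called any. KLF9 averaged 107 ± 14.7 CPM with AC1903 and 76.7 ± 9.68 CPM in WT (SD, n = 2 each), a log2 difference of 0.49 (SE 0.18, edgeR adjusted p = 0.4). Of the 8, KLF9, CDKN1A and ANGPTL4 had both AC1903 libraries above both WT libraries, as did 24.2% of all genes, and none had both below, as 23.5% did. By fitted fold change 4 of the 8 were above WT, with a median log2 of 0.02, against 50.2% of all genes and a median of 0.00. CDKN1A differed by 0.57 (SE 0.46, edgeR adjusted p = 0.671) and ANGPTL4 by 1.15 (SE 0.56, edgeR adjusted p = 0.467). PER1, TSC22D3, CEBPD and DDIT4, which stood higher with AC1903 than with vehicle by fitted fold change, lay between -0.18 and 0.11 on the log2 scale against WT, with SE between 0.29 and 0.36. With 2 against 2 libraries no permutation test can give a p under 0.3333.

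Age and single rats moved with these levels. Vehicle replicate 2, the youngest rat at 17.4 weeks, was the lowest library for 6 of the 10 genes. WT replicate 2, at 21.9 weeks, was the highest for 5 (PER1, TSC22D3, DUSP1, CEBPD and DDIT4) and AC1903 replicate 1, at 23.0 weeks, for 3 (ZBTB16, FKBP5 and KLF9). Over the 8 genes other than ZBTB16 and FKBP5 the median deviation from the 6-library mean was 0.28 and 0.09 log2 units with AC1903, -0.13 and -0.54 with vehicle and -0.30 and 0.48 in WT. The same median over all genes tested stayed between -0.01 and 0.03 in each library. Scaling holds that median near 0, so it does not measure how far 8 genes can stray. ZBTB16 and FKBP5 did not share the WT part of this pattern, since the older WT rat had the lowest level of both in all 6 libraries.

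With age in weeks as a covariate, the log2 difference of AC1903 over vehicle was 3.23 (SE 0.76) for ZBTB16 and 0.93 (SE 0.46) for FKBP5. It was 0.13 (SE 0.29) for PER1, 0.15 (SE 0.36) for TSC22D3 and 0.27 (SE 0.22) for KLF9, and the median over the 10 genes was 0.21. DUSP1, at -0.41, and DDIT4, at -0.28, then had the opposite sign. For PER1 in vehicle against WT the value was -0.43 (SE 0.28). In each group 1 rat was 20.4 weeks old, and these libraries were set side by side after the data were seen. Among them AC1903 exceeded vehicle by 2.80 log2 units for ZBTB16, 0.67 for FKBP5, 0.35 for TSC22D3, 0.30 for KLF9, 0.27 for PER1, 0.51 for CEBPD and 0.96 for ANGPTL4. DUSP1, at -0.21, DDIT4, at -0.16, and CDKN1A, at -1.23, were lower with AC1903 in that pair. In the same rats vehicle minus WT was -0.21 for PER1 and -0.46 for CEBPD and above 0 for the other 8 genes. TSC22D3 (0.25), KLF9 (0.18), DUSP1 (0.21) and DDIT4 (0.08) thereby had the opposite sign to the fit on all 6 libraries. A single library per group has no replicate check, and the part of age in these levels was not tested beyond these values.

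**Figure D3:**
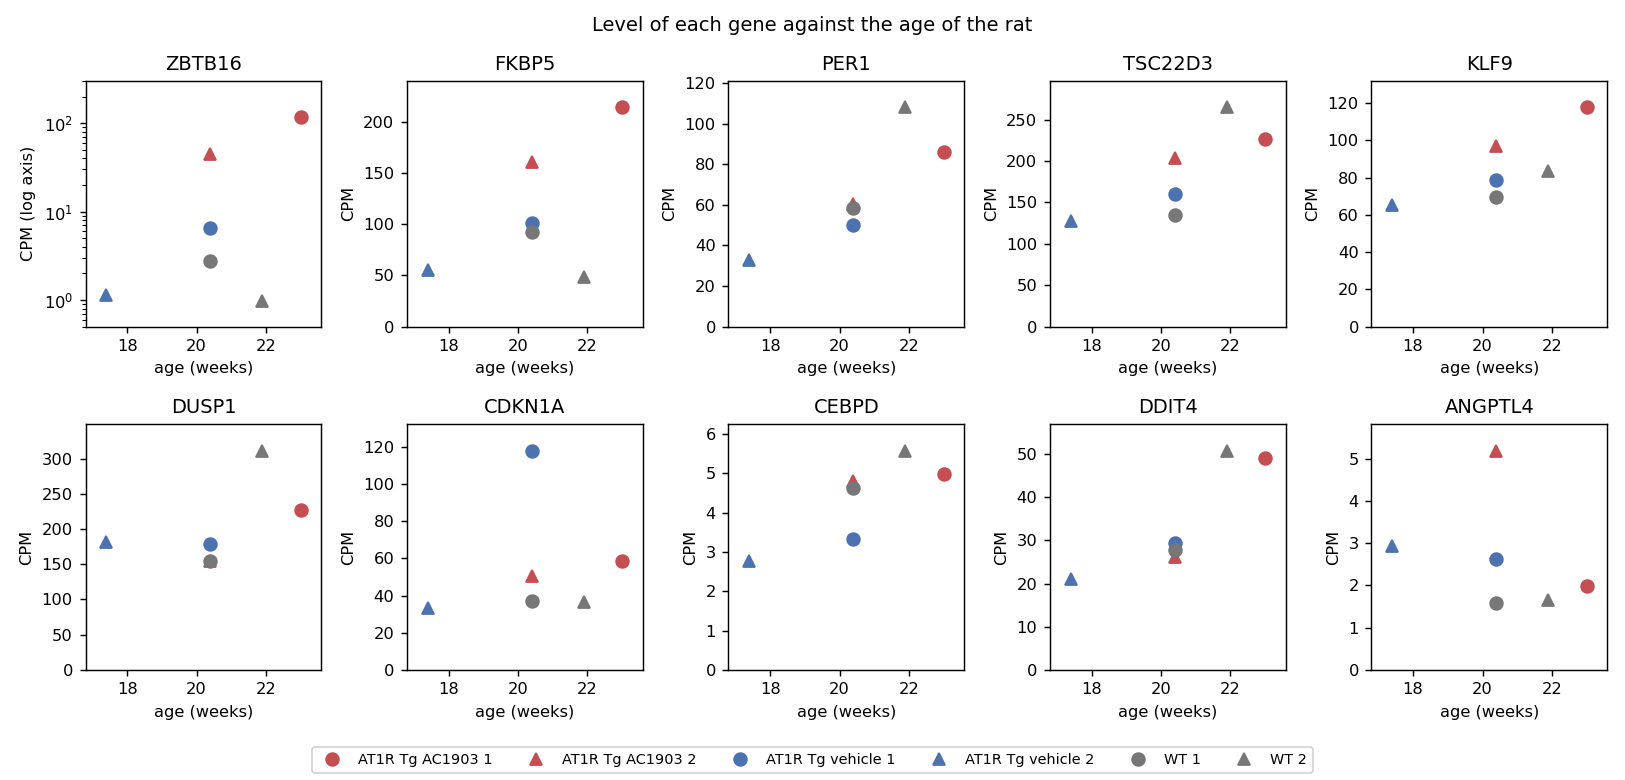
Level of each of the 10 genes in CPM (y axis, logarithmic for ZBTB16 and from 0 for the others) against the age of the rat in weeks (x axis), with AT1R Tg AC1903 in red, AT1R Tg vehicle in blue and WT in grey, a circle for replicate 1 and a triangle for replicate 2. At 20.4 weeks the AC1903 rat is above the vehicle and WT rats for ZBTB16, FKBP5, PER1, TSC22D3, KLF9, CEBPD and ANGPTL4. Its margin over the WT rat is small for PER1 (60.5 against 58.2 CPM) and CEBPD (4.80 against 4.63 CPM). In WT the rat of 21.9 weeks is above that of 20.4 weeks for PER1, TSC22D3, KLF9, DUSP1, CEBPD, DDIT4 and, by 1.65 against 1.58 CPM, ANGPTL4.

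No gene of the machinery that reads the hormone was called by edgeR between groups. Of all genes edgeR called 0% between AC1903 and vehicle, 0.0745% between vehicle and WT and 0.0372% between AC1903 and WT. The lack of a call therefore says little about these genes. NR3C1, the glucocorticoid receptor, had 166 and 177 CPM with AC1903, 162 and 165 CPM with vehicle and 186 and 182 CPM in WT. The log2 difference was 0.07 (SE 0.15, edgeR adjusted p = 0.913) between AC1903 and vehicle and -0.17 (SE 0.15, edgeR adjusted p = 0.72) between vehicle and WT. NR3C2, the mineralocorticoid receptor, had 8.65 and 8.87 CPM with AC1903, 4.18 and 10.2 CPM with vehicle and 8.29 and 6.59 CPM in WT, and the vehicle pair enclosed the rest. HSD11B2 had 14.5 and 29.3 CPM with AC1903, 19.9 and 19.3 CPM with vehicle and 23.2 and 20.1 CPM in WT, with AC1903 enclosing both other groups. FKBP4, another HSP90 co-chaperone, had 141 and 156 CPM with AC1903, 141 and 138 CPM with vehicle and 111 and 127 CPM in WT. NCOA3, a steroid receptor coactivator, had 135.6 and 100.5 CPM with AC1903, 72.1 and 71.5 CPM with vehicle and 92.6 and 78.3 CPM in WT, highest in the AC1903 pair (log2 0.72 over vehicle, SE 0.19, edgeR adjusted p = 0.538).

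Of 17 gene IDs for receptors, steroid enzymes, chaperones and coactivators, 14 were higher with AC1903 than with vehicle by fitted fold change. Of all genes 47.9% were, and the median log2 of the 17 was 0.18. In vehicle against WT 6 of 17 were positive, against 46.6% of all genes, with a median of -0.05. None was called by edgeR or DESeq2 in any of the 3 comparisons. Of all genes DESeq2 called 0.499% between AC1903 and vehicle, 4.13% between vehicle and WT and 1.35% between AC1903 and WT. HSD11B1, which regenerates active glucocorticoid, was not paired with an ID here.

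A wider set of 26 other genes induced by glucocorticoids was read the same way. AC1903 stood above vehicle in 18 of the 26, against 47.9% of all genes, with a median log2 of 0.13. None was called by edgeR or DESeq2, which called 0% and 0.499% of all genes there. An unadjusted p under 0.05 was found for 4 of them, against 8.12% of all genes, all higher with AC1903: FOXO3, TNFAIP3, KLF15 and ERRFI1. FOXO3, a forkhead factor of atrophy and stress genes, had 20.9 and 17.9 CPM with AC1903, 11.0 and 10.9 CPM with vehicle and 10.6 and 9.89 CPM in WT. KLF15, a Krüppel-like factor of podocytes and metabolic tissue, had 43.4 and 31.7 CPM with AC1903, 28.9 and 19.0 CPM with vehicle and 20.6 and 22.3 CPM in WT. In both genes the AC1903 pair was the highest, with log2 values over vehicle of 0.82 (SE 0.21, edgeR adjusted p = 0.538) and 0.65 (SE 0.25, edgeR adjusted p = 0.602).

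ERRFI1, a feedback inhibitor of the EGF receptor, had 27.8 and 21.2 CPM with AC1903, 16.6 and 17.1 CPM with vehicle and 6.89 and 8.40 CPM in WT. Its 3 groups were stepped without overlap, and the log2 difference of AC1903 and WT was 1.68 (SE 0.23, edgeR adjusted p = 0.0568). SGK1, the kinase that raises sodium transport, had 439 and 337 CPM with AC1903, 399 and 341 CPM with vehicle and 372 and 434 CPM in WT, and overlapped in all groups (log2 0.07 for AC1903 over vehicle, SE 0.20, edgeR adjusted p = 0.939). Vehicle was above WT in 14 of the 26, against 46.6% of all genes, with a median of 0.03. There edgeR called 0 and DESeq2 called 3, against 4.13% of all genes. AC1903 was above WT in 16 of the 26, against 50.2% of all genes, with a median of 0.17. In that comparison edgeR called 0 and DESeq2 called 3, against 1.35% of all genes.

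PER1 also belongs to the clock, CDKN1A to the p53 response and DUSP1 to the immediate early genes, and each was read beside that list. Of 16 clock genes 8 were above and 8 below vehicle with AC1903, and the median log2 was 0.00. Of all genes 47.9% were above. PER2, another period gene, had 59.8 and 79.4 CPM with AC1903, 48.9 and 73.8 CPM with vehicle and 50.6 and 67.5 CPM in WT, and it overlapped in all groups. PER3 followed PER1 in that vehicle was lowest, at 41.7 and 37.7 CPM with AC1903, 27.7 and 33.0 CPM with vehicle and 45.3 and 38.7 CPM in WT. Of 18 immediate early genes 7 were above vehicle with AC1903 and 4 above WT, with medians of -0.19 and -0.24. The shares of all genes were 47.9% and 50.2%. Of 11 p53 targets 8 were above vehicle with AC1903, against 47.9% of all genes, with a median of 0.25. CCNG1, a cyclin induced by p53, shared the high vehicle replicate 1 of CDKN1A, at 258 and 274 CPM with AC1903, 407 and 247 CPM with vehicle and 286 and 264 CPM in WT. GADD45A, a DNA damage response gene, did too, with 122 and 68.6 CPM in vehicle against 79.8 and 88.8 CPM in WT. CCNG1 and GADD45A were picked for that value after it was seen. PLK2, another p53 target, was at its lowest of the 6 libraries in vehicle replicate 1, with 29.9 and 36.7 CPM in vehicle against 41.6 and 52.6 CPM in WT. It was highest in WT replicate 2, as was BTG2. MDM2, TP53INP1 and RRM2B were highest in AC1903 replicate 1 and SESN2 in vehicle replicate 2. No gene of these 3 lists was called in any comparison by edgeR or DESeq2. The largest shares of all genes called, both between vehicle and WT, were 0.0745% in edgeR and 4.13% in DESeq2.

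Cell type markers moved with the groups as well. Macrophage and monocyte markers were above vehicle with AC1903 in 17 of 17, against 47.9% of all genes, with a median log2 of 1.22. Their summed level was 423 and 981 CPM with AC1903, 264 and 340.2 CPM with vehicle and 282 and 473 CPM in WT. Lymphocyte markers were above vehicle in 5 of 6, with summed levels of 56.8 and 84.7 CPM with AC1903, 23.3 and 26.0 CPM with vehicle and 32.2 and 38.4 CPM in WT. Most of that sum was PTPRC, which all leukocytes express, and CD4, which rat macrophages also express. LCK, CD8A, CD79A and CD79B alone summed to 12.1 and 8.47 CPM with AC1903, 7.50 and 6.59 CPM with vehicle and 9.08 and 10.7 CPM in WT. edgeR called none of either list between AC1903 and vehicle, as it called 0% of all genes there. DESeq2 called 3 of the macrophage and 2 of the lymphocyte genes, against 0.499% of all genes. Within AC1903 the macrophage sum was higher in replicate 2, and the sum of those 4 lymphocyte genes in replicate 1. Among the members ANGPTL4 was higher in replicate 2 and all others in replicate 1. The part of these cells in the members' levels was not tested. CD79A and CD79B, which mark B cells, were at 0 in 1 library each, and no other marker was at 0 in any library.

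Proximal tubule markers, a sign of tubule fragments among glomeruli, summed to 2938 and 2999 CPM with AC1903, 2805 and 5188 CPM with vehicle and 2039 and 1373 CPM in WT. In vehicle against WT 12 of 13 were above, without overlap, against 20.6% of all genes, with a median log2 of 1.33. There edgeR called 0 of them, against 0.0745% of all genes, and DESeq2 called 10, against 4.13%. Podocyte markers summed to 10930 and 14310 CPM with AC1903, 18020 and 9627 CPM with vehicle and 16670 and 14330 CPM in WT. The vehicle rat with the highest podocyte sum was also the one with the high CDKN1A, and the vehicle rat with the highest tubule sum was the lowest for 6 of the 10 genes. Glomerular endothelial markers summed to 9359 and 7276 CPM with AC1903, 6605 and 7099 CPM with vehicle and 9429 and 9368 CPM in WT. Of these markers 10 of 11 were above vehicle with AC1903, against 47.9% of all genes. With vehicle 0 of 11 were above WT, against 46.6% of all genes. Lowest in vehicle, that sum ordered the groups as PER1 and CEBPD did. The part of cell make-up in any of these levels was not tested.

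**Figure D4:**
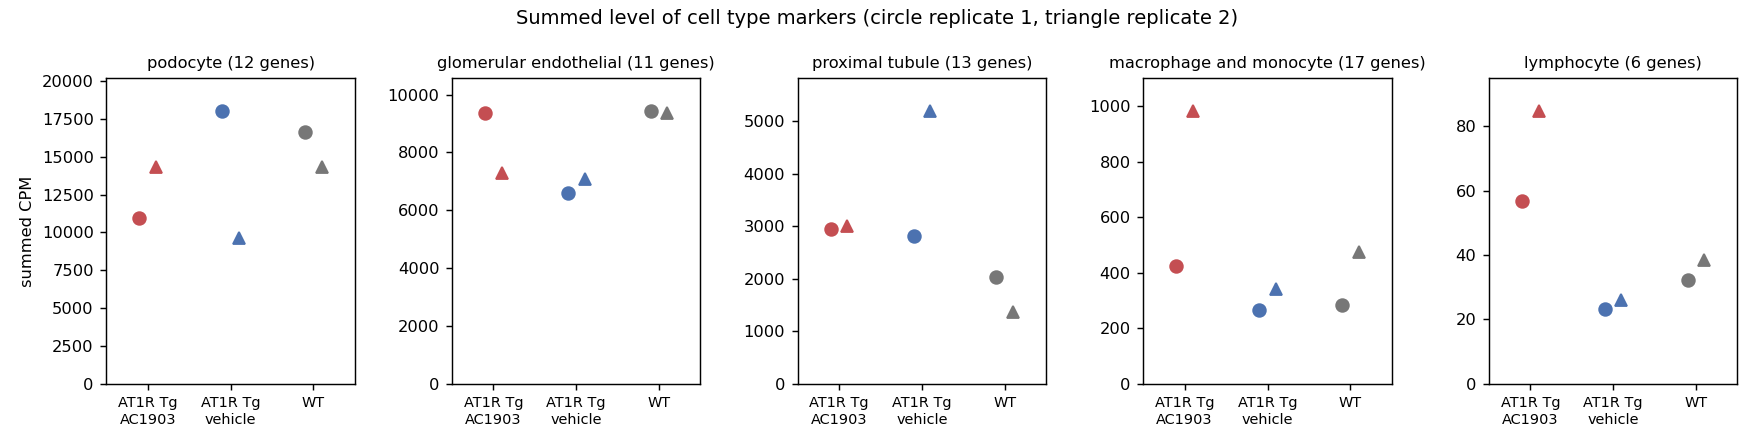
Summed CPM (y axis, from 0) of the podocyte, glomerular endothelial, proximal tubule, macrophage and monocyte, and lymphocyte markers in AT1R Tg AC1903, AT1R Tg vehicle and WT, with a circle for replicate 1 and a triangle for replicate 2. AC1903 replicate 2 has the highest macrophage sum, 981 CPM against 264 to 473 CPM in the vehicle and WT libraries, and vehicle replicate 2 has the highest proximal tubule sum, 5188 CPM.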

How the data were processed

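Messenger RNA of rat glomeruli was sequenced with a stranded mRNA kit on an Illumina instrument, per the labels' protocols. The authors deposited expected counts per Ensembl gene, made with STAR 2.5.2b and RSEM 1.3.0 on the build Rnor_5.0, per the submitters' processing notes. The sources used here name no annotation release or read filter. They also deposited log2 fold changes and adjusted p-values for both comparisons with AT1R Tg vehicle, per the file headers. The sources used here name no tool for those. Symbols came from these tables, which use human symbols, and 154 IDs had more than 1 symbol. Promoters of the build GRCr8 were used for sequence alone, since the counts are on another build.

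Expected counts were rounded, filtered with filterByExpr by group (13426 genes left) and TMM-scaled (trimmed mean of M values). Tests used the quasi-likelihood method of edgeR 4.0.16 in R 4.3.3 on all 6 libraries, two-sided, with Benjamini-Hochberg adjustment over all genes, a threshold of 0.05 and 3 residual degrees of freedom, and it was tested on simulated data. The common biological coefficient of variation was 23%. Log2 CPM used a prior count of 2. A count of 0 allows up to 3 counts, or 0.0833 to 0.2434 CPM, for counting error only. No pair of libraries was a duplicate: within groups, chi-square over degrees of freedom lay between 19.9 and 98.7.

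The members and all gene lists were chosen with earlier results of these data known. All 10 members were named. From every other list, the genes past the threshold and up to 4 per comparison of smallest p could be named, with a fixed set of NR3C1, NR3C2, HSD11B1, HSD11B2, FKBP4, SGK1 and PER2, and the text gives part of them. CCNG1 and GADD45A are shown for their vehicle values, seen first. Genes alike in pattern were the 5 of highest Pearson correlation, 1 of which is not reported here. Alternatives were DESeq2 1.42.0, limma-voom (limma 3.58.1), other scalings and filters, only the groups compared, a replicate block, age as a covariate and leaving out each library.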

Additional observations from a re-analysis of the deposited data

How the results depend on the processing

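Calls among the members are counted over the 8 genes other than ZBTB16 and FKBP5, which are not tested. Over 16 alternatives the log2 difference of AC1903 and vehicle, a description, ran from 3.23 to 6.16 for ZBTB16 and from 0.88 to 1.75 for FKBP5, with 0 changes of sign. Between AC1903 and vehicle edgeR called 0 genes, DESeq2 67, edgeR with no filter 114 and with age as a covariate 1, and 0 to 4 when each library was left out in turn. Between vehicle and WT edgeR called 10 genes, DESeq2 554, edgeR with no filter 774, with the 2 groups alone 4 and with age 4, and 1 to 530 without one library, 530 of them without vehicle replicate 1. Members called there numbered 0, and with no filter 2 (PER1 lower and CDKN1A higher). Without vehicle replicate 2 the log2 value of CDKN1A rose to 1.68, with 1 rat left in the vehicle group. Between AC1903 and WT edgeR called 5 genes, DESeq2 181, library totals 8, no filter 464 and the 2 groups alone 21, and 1 to 25 without one library. Members called there numbered 0 in every alternative run. No filter also left in genes of very low counts, with 17364 tested. Unscaled library totals moved the median of all genes to -0.19 in vehicle against WT and to -0.12 in AC1903 against WT. ANGPTL4 was not tested under the filter of 5 CPM in 2 libraries.

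Some members changed sign. Without one library AC1903 against vehicle reached -0.26 for DUSP1 (without AC1903 replicate 1), 0.71 for CDKN1A (without vehicle replicate 1) and -0.51 for ANGPTL4 (without AC1903 replicate 2), and age as a covariate gave -0.41 for DUSP1 and -0.28 for DDIT4. Without vehicle replicate 1, vehicle against WT was -0.66 for ZBTB16 and -0.35 for FKBP5, and without WT replicate 2 it was -0.24 for FKBP5. In vehicle against WT, age as a covariate gave 0.15 for KLF9, 0.0464 for DUSP1 and 0.0347 for DDIT4. Without one library the values there ran from -0.88 to 0.0944 for TSC22D3, -0.23 to 0.0444 for KLF9, -0.79 to 0.22 for DUSP1 and -0.15 to 1.68 for CDKN1A. In AC1903 against WT they ran from -0.57 to 0.33 for PER1, -0.30 to 0.67 for TSC22D3, -0.71 to 0.30 for DUSP1, -0.20 to 0.0767 for CEBPD and -0.60 to 0.43 for DDIT4. The cause was not tested. The range of age and the 2 libraries per group limit every value, and so do the low counts of CEBPD, of ANGPTL4 and of ZBTB16 outside the AC1903 group.

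No label says that equal replicate numbers pair the rats. Deviations of same-numbered libraries from their group means were correlated over 13426 genes. The correlation was -0.04 between AC1903 and vehicle, -0.02 between vehicle and WT and 0.00 between AC1903 and WT. With 2 libraries per group such values cannot decide whether the rats were paired, and they were treated as unpaired. A fit with the replicate block called 2 genes between AC1903 and vehicle, 4 between vehicle and WT and 7 between AC1903 and WT. Of the 8 members 0 were called with the block between vehicle and WT and between AC1903 and WT.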
